A study of Mus musculus with 16 samples.

Results

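Unstimulated blood neutrophils of LTβRΔN mice and of control littermates were compared. The libraries were chosen by their labels alone, as the 4 LTβRΔN and 3 control libraries labelled unstimulated, which are 7 of the 16 libraries of the series. The study asked what the lymphotoxin β receptor (LTβR) does in neutrophils. These 7 libraries give the transcriptome of cells labelled unstimulated and its differences by genotype. LTβRΔN mice are Ltbr fl/fl animals that carry Mrp8-Cre, a transgene that expresses Cre together with EGFP from the promoter of S100A8, a gene of the neutrophil lineage. The controls were littermates labelled Cre-negative. The transgene and the loss of Ltbr therefore go together in every library, and their effects cannot be told apart. All mice were on the C57/Bl6 background and 8 weeks old, and neutrophils were taken from blood by negative selection with magnetic beads. No label says that libraries of a group came from separate animals, so p-values measure the spread between these libraries, which may be technical. The treatment protocol names a culture of 2 h with TNF (100 ng/ml), IL-6 (50 ng/ml) and GM-CSF (100 ng/ml), with or without LIGHT (500 ng/ml), whereas the design text sets cells with cytokines against cells without. No label states for a single library what the unstimulated cells received.

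LTβR is a receptor of the TNF receptor superfamily, with LIGHT (Tnfsf14) and the membrane-bound lymphotoxin heterotrimer, whose β chain is encoded by Ltb, as its ligands. Its cytoplasmic tail recruits TRAF adaptors. This stabilizes the kinase NIK, lets p100 (Nfkb2) be processed to p52 and brings p52 and RelB into the nucleus, the alternative NF-κB pathway. LIGHT also binds a second receptor, HVEM (Tnfrsf14). Neutrophils are short-lived phagocytes that leave the marrow with their granules already filled, and circulating cells transcribe few of the granule genes of their precursors.

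Totals were 6594594 to 11932653 counts in control and 1094335 to 11424825 counts in LTβRΔN libraries. The lowest total was that of LTβRΔN library 68, which also stood furthest from its group, with 308 of 5407 genes more than 2-fold from the mean of the others where the other libraries had 134 to 249. Thinned to 1094335 counts, every library still detected 8655 to 9105 genes. Totals, thinned numbers of genes and the share of counts taken by the 20 most counted genes (17.58 to 22.4%) did not separate the genotypes (exact two-sided permutation tests, p = 0.314, 0.914 and 0.514, with 0.0286 as the lowest p possible for 4 against 3). Of 23337 gene symbols, 9213 passed the filter on low counts and were tested.

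The labelled cell type was checked against marker genes. All 14 neutrophil markers in the table passed the filter, with S100a8, S100a9, Retnlg, Csf3r, Il1r2 and Mxd1 among them. B cell, NK cell, basophil and dendritic cell markers summed to at most 1.6 CPM in any library (CPM, the counts of a gene per 1000000 of the TMM-adjusted library size), and T cell markers to 5.55 to 9.65 CPM in control and 4.52 to 16.5 CPM in LTβRΔN libraries. Platelet markers summed to 7.15 to 28.0 CPM in control and 8.37 to 14.4 CPM in LTβRΔN libraries. Erythroid markers, nearly all from the globin transcript Beta-s, summed to 24.1 to 49.2 and 11.996 to 55.2 CPM. Of the monocyte markers, Ly86 was at 0 in all 7 libraries, and Csf1r and Nr4a1, which neutrophils also transcribe, made up nearly all of a sum of 1767 to 2197 CPM in control and 1796 to 2912 CPM in LTβRΔN libraries. Of the eosinophil markers, Epx, Prg2 and Ear1 were at 0, and the sum of 53.6 to 76.7 and 54.4 to 114 CPM came mostly from Siglec5. In whole populations such as these, fewer cells of a type and less RNA per cell cannot be told apart.

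A few transcripts took a large part of the message. In TPM, counts divided by exon length and scaled to a sum of 1000000 per library, the 10 most abundant genes held 32.1% of all TPM in control and 32.0% in LTβRΔN neutrophils, the top 30 held 44.0% and 44.5%, and the top 100 held 58.9% and 59.9%. At 1 TPM or more 8053 genes were found in control and 8004 in LTβRΔN neutrophils, and at 1000 TPM or more 133 and 128. The genotypes shared 28 of their 30 most abundant transcripts.

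S100a8 and S100a9, which together encode the antimicrobial protein calprotectin, led the list. S100a8 was at 105984, 108174 and 126129 TPM in control libraries 71, 72 and 73 and at 131665, 75336, 108181 and 122800 TPM in LTβRΔN libraries 67, 68, 69 and 70. The genotypes overlapped, and the lowest value was that of library 68. S100a9 had 76106 ± 5111 (SD, n = 3) TPM in control and 72569 ± 9365 (SD, n = 4) TPM in LTβRΔN neutrophils. Next came Tyrobp, the adaptor of activating receptors (27849 ± 2854 and 29250 ± 2687 TPM), the ferritin light chain gene Ftl1 (26403 ± 828 and 28537 ± 1537 TPM), the resistin-like gene Retnlg (14990 ± 2572 and 15532 ± 2776 TPM) and S100a11 (14768 ± 761 and 14788 ± 2067 TPM). Il1b, which encodes interleukin-1β, already ranked among the top 12 in cells labelled unstimulated. It was at 8825, 8645 and 13675 TPM in control and at 13736, 8280, 13292 and 12442 TPM in LTβRΔN libraries, so that both genotypes held low and high libraries. The 30 genes further included cytoskeletal Tmsb4x, Actb and Actg1, the antimicrobial and antiprotease genes Lyz2 and Slpi, the chemokine Ccl6, the class I genes H2-D1 and B2m, and the receptor chains Fcer1g and Csf3r. By edgeR's adjusted p-value none of the 30 differed, and Klf2 and Lrg1 had unadjusted p-values of 0.0323 and 0.0155 with log2 fold changes of 0.35 each. The plot of the 30 most abundant transcripts shows the spread of each.

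**Figure D1:**
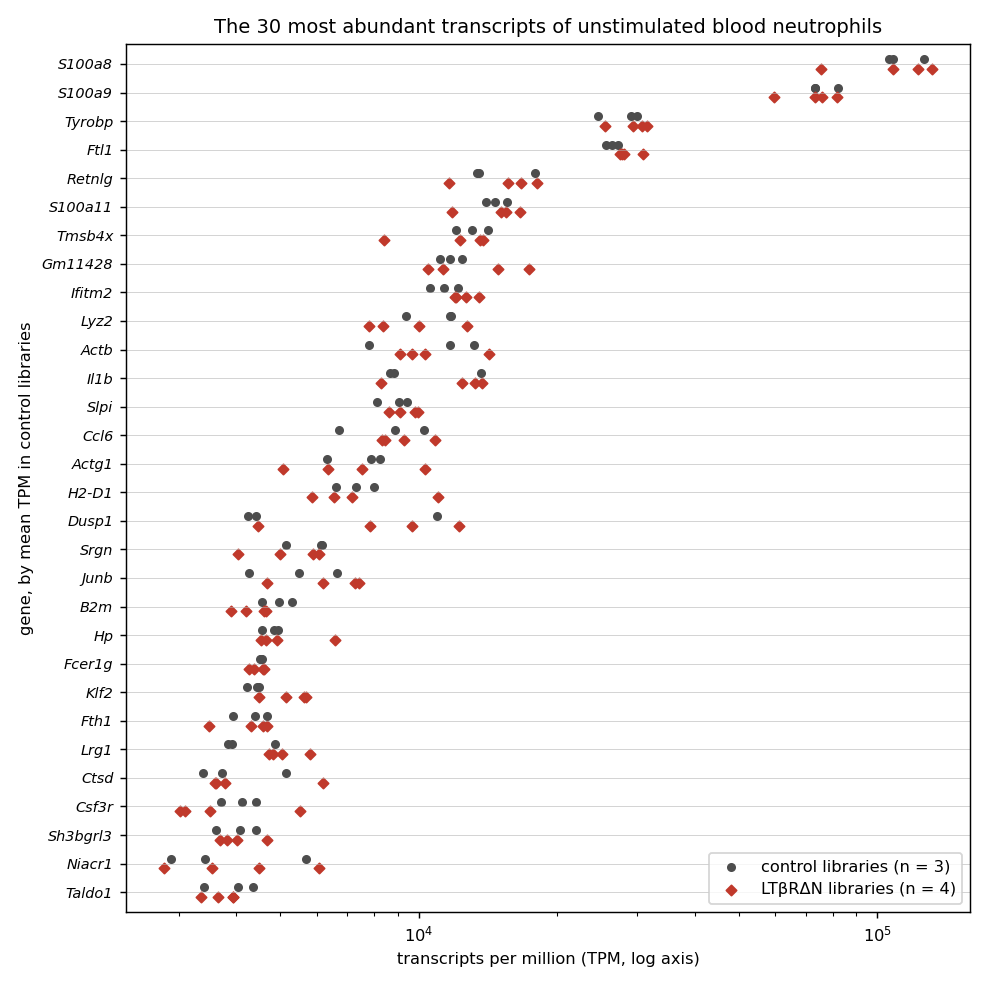
Level of the 30 most abundant transcripts in TPM on a log axis, with 1 grey circle per control library (n = 3) and 1 red diamond per LTβRΔN library (n = 4). From S100a8 at 113429 TPM to Taldo1 at 3937 TPM in the control mean, the genotypes overlap for 28 of the 30 genes, not for Ftl1 and Klf2, whose LTβRΔN libraries lie just above the controls, and Dusp1 has the widest spread.

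Ltbr itself was the check of the genotype labels. The gene lies on the minus strand of chromosome 6 of GRCm38, at chr6:125306571-125313885 (GENCODE M21, matched by symbol). It was counted at 101, 93.5 and 154 CPM in the 3 control libraries and at 10.05, 8.80, 3.62 and 10.4 CPM in LTβRΔN libraries 67, 68, 69 and 70. Every LTβRΔN library was below every control library, and the mean of the LTβRΔN libraries was 7.1% of the control mean. Ltbr fell by 3.80 on the log2 scale (standard error 0.452, 95% interval -4.74 to -2.86, edgeR adjusted p = 1.09e-04). The remaining reads were few but present in every library, 65, 11, 16 and 122 counts. They may come from any exon of the gene, as the table gives 1 count per gene.

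Among all 9213 genes 2 passed an adjusted p-value of 0.05, which is 0.0217% of those tested. The other gene was Ap1s1, which encodes a small subunit of the AP-1 adaptor complex that sorts cargo into clathrin-coated vesicles at the trans-Golgi network. Ap1s1 was counted at 15.9, 9.17 and 14.6 CPM in control and at 154, 126, 110 and 137 CPM in LTβRΔN libraries. The lowest LTβRΔN library was far above the highest control library. The fitted level was 9.96 times that of controls, a log2 fold change of 3.32 (standard error 0.269, 95% interval 2.76 to 3.87, edgeR adjusted p = 1.81e-07). For Ltbr and Ap1s1 the exact two-sided permutation test gave p = 0.0286, the lowest possible for 4 against 3. The third smallest adjusted p-value of the table was 0.380, that of Mcl1. Without any adjustment 136 genes (1.48%) had a p-value under 0.05 and a higher estimate in LTβRΔN neutrophils and 122 (1.32%) a lower estimate, 258 in all where 461 would be expected by chance. DESeq2's Wald test called Mcl1 and Aes besides, and limma voom with sample quality weights called these and Cebpb.

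The windows around the annotated starts of both genes are given to show where they are transcribed from, from 250 bases before to 50 bases after the start, 5′ to 3′ on the minus strand of GRCm38.p6 (RefSeq). Ltbr lies at chr6:125313836-125314135 and Ap1s1 at chr5:137046059-137046358. Capitals would mark a κB-like motif, searched as GGGANNNNCC on both strands.
Ltbr: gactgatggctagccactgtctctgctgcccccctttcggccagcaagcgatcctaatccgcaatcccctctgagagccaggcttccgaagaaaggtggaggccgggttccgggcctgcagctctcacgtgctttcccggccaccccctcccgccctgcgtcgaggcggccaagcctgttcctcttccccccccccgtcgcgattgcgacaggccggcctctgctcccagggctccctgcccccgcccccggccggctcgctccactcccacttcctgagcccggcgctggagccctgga
Ap1s1: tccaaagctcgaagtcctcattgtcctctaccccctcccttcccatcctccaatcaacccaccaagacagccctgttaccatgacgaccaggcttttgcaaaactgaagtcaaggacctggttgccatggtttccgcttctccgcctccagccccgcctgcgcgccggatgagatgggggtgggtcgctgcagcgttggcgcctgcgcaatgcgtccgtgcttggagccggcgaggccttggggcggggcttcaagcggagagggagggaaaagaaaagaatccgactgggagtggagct
Neither window held these letters, which 20.7% of 32851 windows of this length and 26.3% of the 8540 windows of tested genes did.

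**Figure D2:**
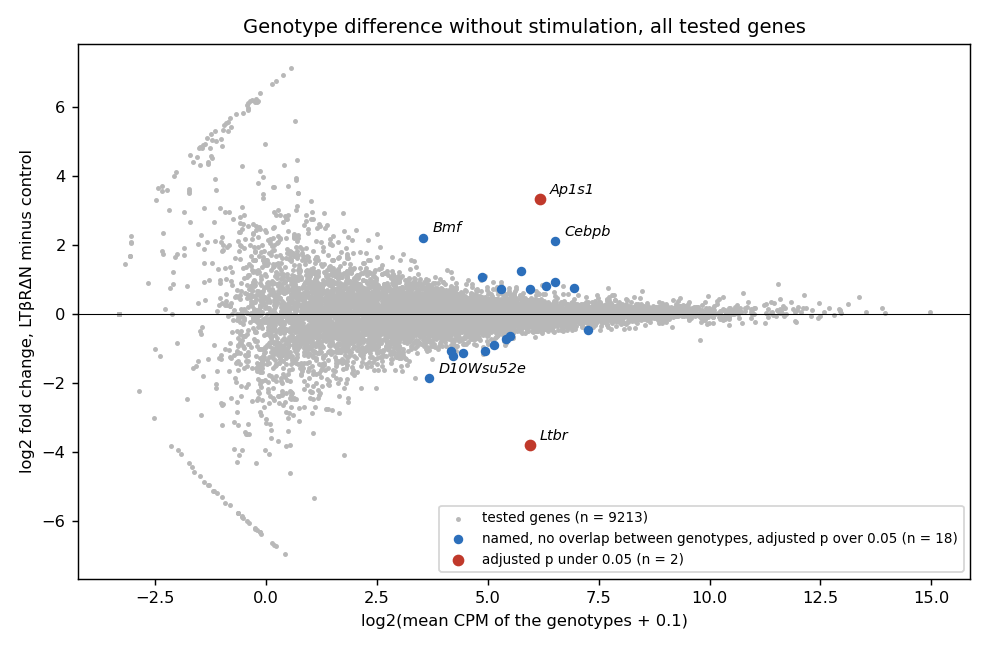
Log2 fold change between genotypes (LTβRΔN minus control) for each of the 9213 tested genes against the mean level on a log2 scale, in CPM plus 0.1. Ltbr (-3.80) and Ap1s1 (3.32) in red stand apart at their level, while genes with few counts scatter widely and abundant genes lie near 0.

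No neighbour of either locus had an unadjusted p-value under 0.05. Of 37 genes of the table within 500 kb of Ltbr 22 were tested. The other 21 had a median log2 fold change of -0.10, where that of all tested genes was -0.0084. Scnn1a and Tnfrsf1a, which encodes TNF receptor 1, lie next to Ltbr, and had 305 ± 26.6 and 1434 ± 53.3 CPM in control (SD, n = 3) against 252 ± 21.2 and 1440 ± 142 CPM in LTβRΔN neutrophils (SD, n = 4). Within 500 kb of Ap1s1, on the minus strand of chromosome 5 at chr5:137034993-137046135, 12 of 24 genes were tested and the median of the other 11 was 0.0048. The nearest tested neighbours on either side, Plod3 and Trim56, had log2 fold changes of -0.44 (standard error 0.269) and 0.26 (standard error 0.289), with 55.6 ± 10.4 and 24.2 ± 2.68 CPM in control and 40.9 ± 3.33 and 28.7 ± 6.10 CPM in LTβRΔN neutrophils.

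The ligands and the other receptor of the family did not pass. Ltb was at 340, 336 and 370 CPM in control and at 343, 348, 347 and 367 CPM in LTβRΔN libraries, with hardly any spread, and its 95% interval of the log2 fold change ran from -0.23 to 0.26. In TPM it stood at 574 ± 8.29 in control neutrophils, above Tnfsf14 at 158 ± 15.1, Ltbr at 123 ± 29.05 and Tnfrsf14 at 10.3 ± 3.53 (SD, n = 3). Tnfsf14 was at 104, 122 and 124 CPM in control and at 129, 109, 134 and 160 CPM in LTβRΔN libraries, which overlapped. Tnfrsf14 was too low for a firm statement, with 4.21 to 7.98 CPM in control and 1.81 to 5.19 CPM in LTβRΔN libraries and an interval from -2.18 to 0.95. Lta and Cd160 were at 0 in all 7 libraries, where 3 counts, the most that a count of 0 allows, would be 0.251 to 2.74 CPM. Such limits cover counting error only, while the intervals rest on the spread between libraries.

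Of 12 NF-κB adaptors and kinases downstream of the receptor none passed over all genes, and their median log2 fold change was 0.017. Birc3 (cIAP2) was the most abundant at 78.9 ± 13.2 TPM in control and 79.6 ± 17.3 TPM in LTβRΔN neutrophils. Map3k14, which encodes NIK, had a log2 fold change of -0.06 with a 95% interval from -0.73 to 0.62. Traf3, which targets NIK for degradation, was at 17.02, 19.8 and 9.96 CPM in control and at 27.4, 36.0, 34.2 and 26.6 CPM in LTβRΔN libraries. These did not overlap, but the unadjusted p-value was 0.0375 (edgeR adjusted p = 1), and under stimulation the estimate was -0.47.

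Of 14 NF-κB subunits and inhibitors none passed, and 13 had a 95% interval inside 2-fold in either direction. Over all tested genes 38.5% did, a share that depended on the level. Both subunits of the alternative pathway were low, with Nfkb2 at 29.3 ± 7.155 TPM and Relb at 24.03 ± 2.78 TPM in control neutrophils, and had log2 fold changes of -0.13 (-0.61 to 0.35) and 0.11 (-0.56 to 0.79). Rela had 143 ± 26.7 TPM and a change of -0.02 (-0.45 to 0.41), and Nfkbia, an inhibitor that NF-κB itself induces, 844 ± 281 TPM and 0.16 (-0.18 to 0.50). Rel (c-Rel) was at 39.0, 67.1 and 58.8 CPM in control and at 35.9, 38.4, 33.2 and 34.7 CPM in LTβRΔN libraries. All 4 were lower than every control library, although library 71 was close to them (log2 fold change -0.63, standard error 0.201, edgeR adjusted p = 1). Tnfaip3, which encodes the deubiquitinating enzyme A20, was at 40.8, 47.7 and 79.4 CPM in control and at 80.5, 74.4, 79.2 and 88.1 CPM in LTβRΔN libraries. Control library 73, the only unstimulated library with index S521, was the one among the LTβRΔN values. The log2 fold change was 0.54 (edgeR adjusted p = 1). It was 0.87 without library 73 (edgeR adjusted p = 0.00408) and 0.87 with the index as a covariate (edgeR adjusted p = 0.00394). The covariate is set by library 73 alone, so both fits make the same comparison and neither is a separate adjustment for a batch.

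**Figure D3:**
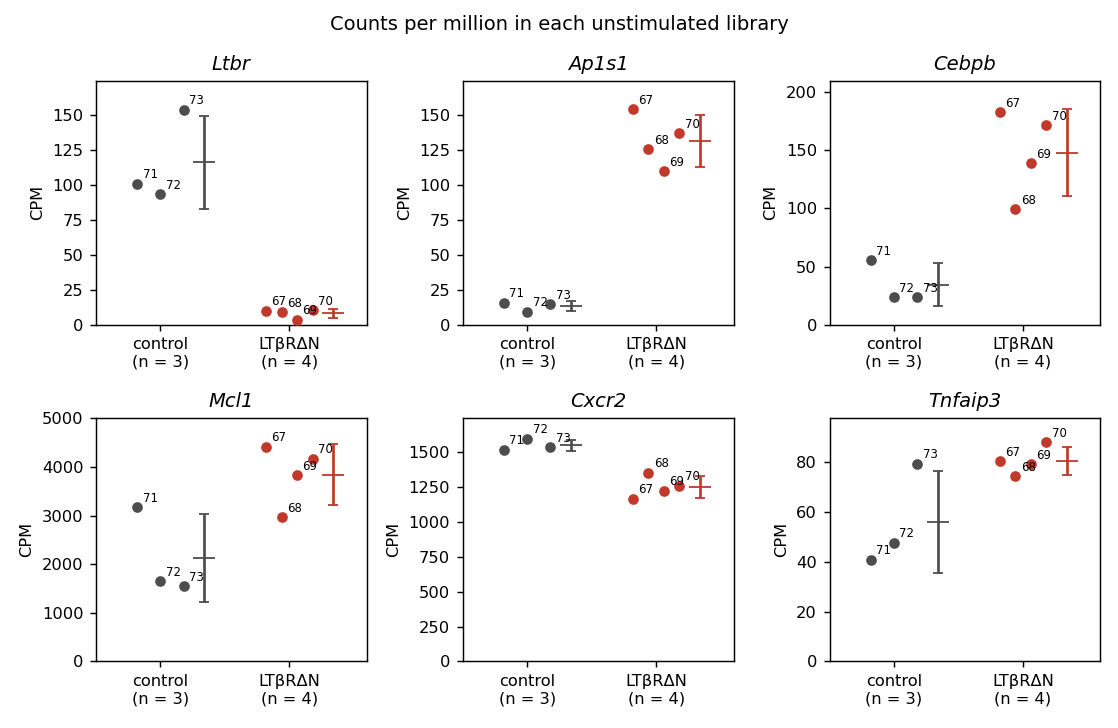
CPM of 6 genes in each unstimulated library, with library numbers at the points and the mean and SD beside them. Ltbr and Ap1s1 are far apart by genotype, Cebpb and Cxcr2 do not overlap, control library 71 lies among the LTβRΔN values for Mcl1, and control library 73 does for Tnfaip3.

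Mcl1, the survival factor on which neutrophil lifespan depends, had the smallest p-value after these genes. It was at 3169, 1654 and 1548 CPM in control and at 4412, 2963, 3828 and 4168 CPM in LTβRΔN libraries. Control library 71 was above LTβRΔN library 68, and the other control libraries were below every LTβRΔN library. The log2 fold change of 0.86 (standard error 0.185) had an edgeR adjusted p of 0.380. It passed by DESeq2's Wald test (adjusted p = 0.00592), by limma voom with quality weights (0.00370) or with the column number as a random replicate block (0.0414), with every gene of at least 1 count (edgeR adjusted p = 0.0467) and without library 71 (1.26, edgeR adjusted p = 1.41e-04). Between stimulated libraries the estimate was -0.01. Over 26 survival and death genes tested the median was 0.024 and none passed. Noxa (Pmaip1), the inflammasome sensor Nlrp3, Gsdmd and Bid, the most abundant after Mcl1, had estimates of 0.06, 0.14, 0.02 and -0.04. The BH3-only gene Bad (0.94) had an unadjusted p-value of 0.0249 and the kinase gene Ripk1 (-0.47) one of 0.0491.

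Cebpb encodes a transcription factor of emergency granulopoiesis. It was at 55.6, 23.5 and 23.8 CPM in control and at 183, 99.2, 139 and 172 CPM in LTβRΔN libraries. The lowest LTβRΔN library was above the highest control library, yet both groups spread widely (log2 fold change 2.11, standard error 0.493, edgeR adjusted p = 0.553). It passed with only the 7 unstimulated libraries in the fit (adjusted p = 0.00587). In stimulated libraries the estimate was 1.499 with an unadjusted p-value of 0.00178 (edgeR adjusted p = 0.636). Its relatives Cebpd (0.18) and Cebpe (0.39) had unadjusted p-values of 0.158 and 0.473.

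Among tested genes 234 (2.54%) were higher in every LTβRΔN library than in every control library and 292 (3.17%) were lower. Random relabelling of the 7 libraries separates a gene in a given direction with a probability of 0.0286, which is near both shares. Lack of overlap alone therefore does not set a gene apart. With library totals in place of TMM factors the split was 173 higher and 371 lower. The 10 per direction with the smallest p-values among those with a mean of at least 10 CPM over the 7 libraries were taken by rule, of which Bmf (control mean 4.09 CPM) and D10Wsu52e (LTβRΔN mean 5.87 CPM) were below 10 CPM in 1 genotype. On the higher side these were Ap1s1, the co-repressor gene Aes, Cebpb, Rnpepl1, the RNA-binding Samd4b, the MYC antagonist gene Mxi1, the cell cycle inhibitor gene Cdkn1a (p21), the BH3-only gene Bmf, Ppp1r12c and Fam105b. Aes was at 119, 82.5 and 76.0 CPM in control and at 154, 140, 176 and 149 CPM in LTβRΔN libraries, again with library 71 nearest to the other genotype (log2 fold change 0.74, edgeR adjusted p = 0.553). Bmf was low, at 2.05, 7.13 and 3.09 CPM against 19.2, 23.2, 20.8 and 13.2 CPM, and had the second highest estimate among them after Ap1s1, 2.21 (standard error 0.628). Cdkn1a was at 30.6, 51.96 and 58.3 CPM in control and at 80.7, 62.4, 77.8 and 82.9 CPM in LTβRΔN libraries. On the lower side were Ltbr, D930015E06Rik, Zc3h13, Glg1, the co-repressor gene Tle3, Rel, D10Wsu52e, Gatad2b, Lrig2 and Pja2. Besides Ltbr their estimates ran from -1.86 for D10Wsu52e to -0.45 for Tle3, and each had an edgeR adjusted p of 1. Pja2, which encodes a ubiquitin ligase, was at 40.1, 41.0 and 42.5 CPM in control and at 22.1, 24.8, 16.7 and 15.4 CPM in LTβRΔN libraries.

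The same contrast was read in the stimulated libraries, 5 LTβRΔN against 4 controls. They shared the filter, the TMM scaling and the estimate of the spread with the unstimulated libraries. They therefore enter the p-values by which the genes were named. All 7 numbers in the names of the unstimulated columns recur there, so the libraries may share animals, and these values are not independent. Again 2 of 9213 genes (0.0217%) passed, and they were Ltbr (-3.71) and Ap1s1 (3.25). For neither gene was a change of the genotype difference between the treatments detected (interaction, edgeR unadjusted p = 0.889 and 0.835). The interaction had standard errors of 0.601 and 0.323 on the log2 scale, so this does not show that the differences were alike. Of the 10 named higher genes 8 had the same direction with stimulation and 3 an unadjusted p-value under 0.05. These were Ap1s1, Cebpb and Bmf (1.81, edgeR unadjusted p = 0.00291). Of the 10 named lower genes 5 had the same direction, and Ltbr alone an unadjusted p-value under 0.05. Over all 9213 tested genes 51.6% had the same direction, and 591 had an edgeR unadjusted p-value under 0.05 with stimulation. No gene passed the test of the interaction itself at an adjusted p-value of 0.05 (edgeR), and 342 had an unadjusted p-value under 0.05. With the column number as a block in edgeR, also 0 passed and 311 had an unadjusted p-value under 0.05.

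**Figure D4:**
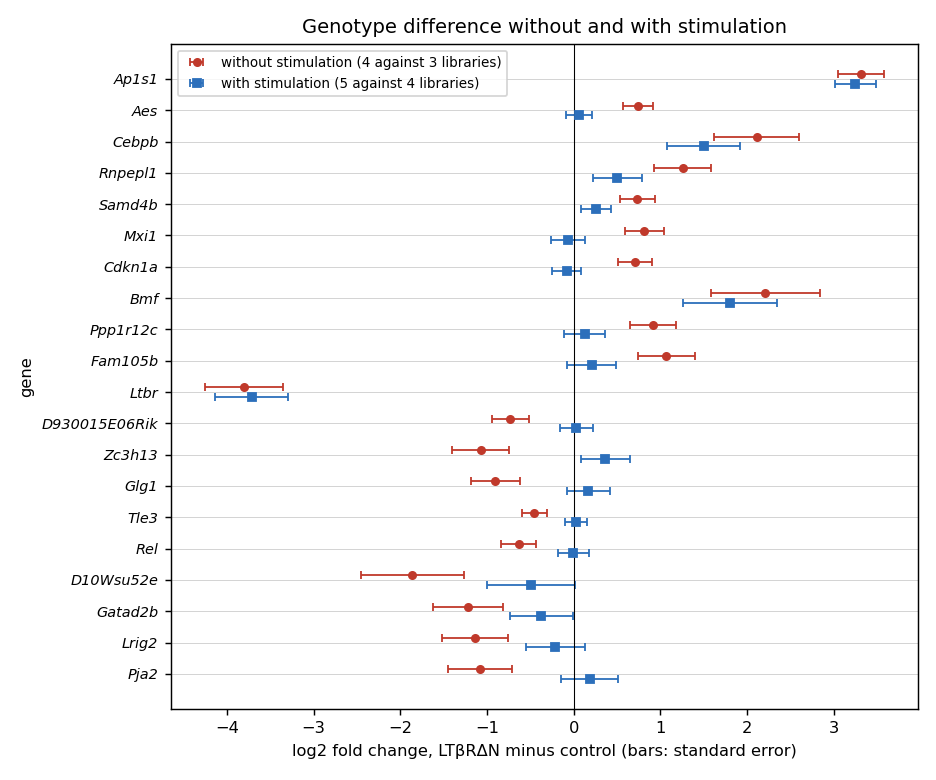
Log2 fold change between genotypes with its standard error for the 20 named genes, without (red circles, 4 against 3 libraries) and with stimulation (blue squares, 5 against 4 libraries). Ap1s1, Ltbr, Cebpb and Bmf keep estimates beyond 1 in size in both, and Mxi1, Cdkn1a and the lower genes other than Ltbr lie nearer to 0 with stimulation.

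How small a difference by genotype is can be stated only where the interval is narrow. For 3550 genes (38.5% of those tested) the 95% interval lay inside a 2-fold difference in either direction. This bounds the size of a difference and does not show that a gene is unchanged. Tle3, named above as lower (-0.75 to -0.16), is among the 3550. The share depended on the level, at 99.2% of 1228 genes with 100 to 1000 CPM in controls, 53.7% of 4062 genes with 10 to 100 CPM and 0.4% of 3099 genes with 1 to 10 CPM. Of the 145 genes at 1000 CPM or more, 6 had a wider interval. They were Dusp1, Fos, Zfp36, Osm, Mcl1 and the nuclear RNA Malat1, named after their values were seen.

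Fos and Dusp1, immediate early genes, split the libraries within each genotype. Fos was at 1995, 2260 and 6730 CPM in control and at 8354, 2032, 5050 and 5986 CPM in LTβRΔN libraries. Control libraries 71 and 72 and LTβRΔN library 68 were low and the others high. Dusp1 split them the same way, at 5567, 5610 and 15248 CPM in control and at 18611, 5311, 10894 and 14574 CPM in LTβRΔN libraries. Their log2 fold changes were 0.55 (-0.34 to 1.44) and 0.49 (-0.18 to 1.15). Over 33 lineage and early response factors the median was 0.18, with 22 estimates above 0 and none past the threshold. Over all tested genes 48.7% of estimates were above 0. Klf2, Jund (0.37), Nr4a1 (0.36), Irf1 (0.28) and Cebpb had unadjusted p-values under 0.05, all with higher estimates, which is 5 of 33 where 1.48% of all genes did. The list was chosen with earlier results of these data known, so these shares are a description and no test of the list. The master regulator PU.1 (Sfpi1) was abundant at 1708 ± 149 TPM in control and 1820 ± 256 TPM in LTβRΔN neutrophils.

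A related group was the 13 cytokine response genes, with a median of 0.29, 12 estimates above 0 (48.7% over all genes) and none past the threshold. Socs3 was at 788, 779 and 1607 CPM in control and at 2162, 871, 1161 and 1715 CPM in LTβRΔN libraries. Its low libraries were again 71, 72 and 68. Id1 (0.56), Tnfaip3 and Socs1 (0.97) had unadjusted p-values of 0.00586, 0.00304 and 0.0124, 3 of 13 genes against 1.48% of all genes. These 13 genes too were chosen with earlier results of these data known, so the shares are no test of the list. Cish, a target of STAT5, was at 0.425 to 5.598 CPM in all 7 libraries, against 239.6 to 589 CPM in the stimulated libraries. The median of this list was 0.66 without control library 73. It was also 0.66 with the library index as a covariate, which amounts to the same comparison.

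Receptors for chemoattractants guide neutrophils to sites of injury. In control neutrophils C5ar1 had 1480 ± 146 TPM, Ccr1 1369 ± 172 TPM, Cxcr2 1273 ± 82.9 TPM and Fpr1 1175 ± 34.5 TPM (SD, n = 3). Niacr1, which encodes a receptor for niacin rather than a classical chemoattractant receptor, was at 3996 ± 1477 TPM. Cxcr4, the marrow retention receptor, was at 126 ± 11.6 TPM. Of 14 tested genes none passed, 13 had intervals inside 2-fold (38.5% over all genes), and the median was 0.038. Cxcr2, the receptor for CXCL1 and CXCL2 that draws neutrophils out of the marrow, was at 1518, 1595 and 1534 CPM in control and at 1165, 1351, 1223 and 1258 CPM in LTβRΔN libraries. The groups did not overlap and were tight, with a log2 fold change of -0.31 (95% interval -0.55 to -0.08, unadjusted p = 0.0117, edgeR adjusted p = 1). The C5a receptor gene Gpr77 had an estimate of -0.37 (unadjusted p = 0.0206). Ccr2 and C3ar1 had 0 counts in control and 9 and 10 counts over the 4 LTβRΔN libraries, and were not tested. All 9 counts of Ccr2 were in library 67 (1.39 CPM).

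Of 25 cytokine receptor genes none had an unadjusted p-value under 0.05, and the median was 0.002. Intervals lay inside 2-fold for 22 (38.5% over all genes). Csf3r, the receptor for G-CSF, was at 5912, 6122 and 5628 CPM in control and at 5004, 7142, 5309 and 5067 CPM in LTβRΔN libraries, where only library 68 was above the controls. The decoy receptor gene Il1r2 had 1989 ± 317 TPM and Tnfrsf1a 1387 ± 102 TPM in controls. Of the receptor genes for the stimulating cytokines, Csf2ra (0.02, 95% interval -0.26 to 0.30), Csf2rb (0.06, -0.27 to 0.40), Il6ra (0.06, -0.30 to 0.41), Tnfrsf1a (0.01, -0.24 to 0.25) and Tnfrsf1b (0.00, -0.34 to 0.34) differed by less than 2-fold with 95% confidence. Il6st, which encodes the shared signalling chain of the IL-6 receptor, was listed at 0 in all 7 libraries.

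Pattern recognition receptors were led by the lectin genes Clec4d (2312 ± 120 TPM in controls) and Clec7a (1634 ± 108 TPM) and by Trem1 (1609 ± 29.1 TPM). Of 27 tested genes none passed and 20 had intervals inside 2-fold (38.5% over all genes). Cd14, the co-receptor for endotoxin, was at 763, 703 and 983 CPM in control and at 1413, 680, 1081 and 1526 CPM in LTβRΔN libraries. Library 68 was the lowest of all 7 and the other LTβRΔN libraries were the highest (log2 fold change 0.53, unadjusted p = 0.0116, edgeR adjusted p = 1). Tlr2 and Tlr13 were the most abundant Toll-like receptor genes, at 405 ± 66.4 and 158 ± 38.5 TPM, with Tlr4 at 36.3 ± 2.57 TPM. Tlr3, Tlr9, Tlr11 and Tlr12 were at 0 in all 7 libraries.

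Of 13 Fc and inhibitory receptor genes 12 had estimates above 0, with a median of 0.11, yet none had an unadjusted p-value under 0.05. Fcer1g, the signalling chain of Fc receptors, was nearly constant at 4533 ± 17.7 TPM in control and 4463 ± 158 TPM in LTβRΔN neutrophils. Fcgr3 had 1785 ± 102 and 1848 ± 62.2 TPM and Fcgr4 had a log2 fold change of 0.10 (-0.29 to 0.48). Of 16 adhesion genes none passed and the median was 0.017. Selplg, the ligand of selectins, and Itgb2, the β2 integrin chain, stood at 1692 ± 246 and 994 ± 108 TPM in controls, with estimates of 0.10 and 0.01. Cd44 had an estimate of -0.25 (unadjusted p = 0.0364).

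Granule genes are transcribed in turn as neutrophils mature in the marrow. Mpo, Elane, Ctsg and Bpi of the primary granules had 0 counts in all 7 libraries. Other members of the primary granule list were counted, and the list summed to 210 to 232 CPM in control and 189 to 257 CPM in LTβRΔN libraries. Prtn3 among them had 42 counts over the control and 113 over the LTβRΔN libraries. Among secondary granule genes Lcn2 was at 1954 ± 194 TPM in control and 1862 ± 149 TPM in LTβRΔN neutrophils, while Ngp, Camp and Ltf were at 165 ± 56.4, 92.8 ± 46.5 and 27.98 ± 14.4 TPM in controls. Ngp, which marks less mature cells, was at 60.8, 65.5 and 118 CPM in control and at 57.3, 19.99, 39.1 and 107 CPM in LTβRΔN libraries. Both genotypes contained low and high libraries, and the interval of -1.54 to 0.55 includes a 2-fold difference. Under stimulation its estimate was -1.56 (unadjusted p = 0.00233). Over the 9 tested secondary granule genes the median was -0.12, and over 23 tertiary granule and cytosolic antimicrobial genes it was 0.065, with no unadjusted p-value under 0.05 in any granule list. The gelatinase genes Mmp9 and Mmp8 were at 1737 ± 467 and 1122 ± 113 TPM in controls, with estimates of 0.04 and -0.29.

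The phagocyte NADPH oxidase makes superoxide. Abundant among its transcripts were Rac2 (3046 ± 187 TPM in control, 3377 ± 618 TPM in LTβRΔN neutrophils) and the p22phox gene Cyba (2524 ± 313 and 2500 ± 139 TPM). The catalytic subunit gene Cybb was low in this table at 8.46 ± 3.84 TPM, and whether annotation or counting lowered it was not tested. Of 9 genes none had an unadjusted p-value under 0.05, and the median was 0.16. The cytokine and chemokine genes Il1b, Ccl6, Osm, Ccl4, Ccl3 and Cxcl2 all had estimates above 0, from 0.19 for Ccl6 to 0.74 for Ccl4. The median over 24 such genes was 0.24, none had an unadjusted p-value under 0.05, and 6 had intervals inside 2-fold (38.5% over all genes). Osm, which encodes oncostatin M, was at 1489 ± 1062 TPM in control and 2119 ± 926 TPM in LTβRΔN neutrophils, a spread within genotypes above the difference of the means. Il6, Il10 and Csf3 were at 0. Of 13 genes of eicosanoid synthesis none passed, and Alox5ap and Alox5, which make leukotrienes, had estimates of -0.10 (-0.34 to 0.13) and 0.03 (-0.32 to 0.38). Alox12, a platelet lipoxygenase, was at 8.82, 0 and 3.09 CPM in control and at 0.155, 0, 0 and 0.0851 CPM in LTβRΔN libraries. Its counts in control came mostly from library 71, which also had the highest sum of platelet markers (28.0 CPM), and the part of platelets in this difference was not tested.

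Of 41 interferon-stimulated genes 27 had estimates above 0, with a median of 0.15, and none passed. The most abundant, Ifitm3, had 2428 ± 272 and 2807 ± 232 TPM. Isg15 was at 274 ± 9.79 and 289 ± 17.6 TPM and Irf7 at 175 ± 14.04 and 219 ± 79.05 TPM. Oas2 (0.72), Zbp1 (0.71) and Herc6 (1.30) had unadjusted p-values of 0.0400, 0.0391 and 0.0457, and Oas2 had an estimate of 0.94 with stimulation (unadjusted p = 0.00421).

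Energy metabolism was covered by 8 lists, in which none of the genes passed. The median was 0.028 over 35 genes of complex I of the electron transport chain (ETC), 0.059 over 4 genes of complex II, 0.10 over 10 genes of complex III and cytochrome c, -0.026 over 11 genes of complex IV and -0.004 over 16 genes of the ATP synthase. All 11 complex IV and 15 of 16 ATP synthase genes had intervals inside 2-fold (38.5% over all genes). Cox8a of complex IV was the most abundant of them at 1718 ± 192 TPM in control and 1624 ± 236 TPM in LTβRΔN neutrophils. Ndufs7 of complex I had an estimate of 0.36 and an unadjusted p-value of 0.0469. Glycolysis and the pentose phosphate pathway were led by Taldo1 (3937 ± 481 and 3724 ± 281 TPM) and the pyruvate kinase gene Pkm2 (1305 ± 138 and 1194 ± 319 TPM), and the median over 28 genes was -0.001. It was 0.035 over 16 genes of the TCA cycle and 0.061 over 77 genes of the mitochondrial ribosome and gene expression. In the last list Mrpl47 had 27 counts over the control and 0 over the LTβRΔN libraries (unadjusted p = 0.0312). No transcript of the mitochondrial genome was in the table used. Over 30 antioxidant and ROS genes the median was 0.064, with Gsr, which recycles glutathione, at 2676 ± 450 and 2460 ± 197 TPM, and Gpx1 at 1775 ± 324 and 1956 ± 179 TPM. Cytoplasmic ribosomal protein genes took 0.55 to 0.77% of counts in every library, and 24 of 80 had estimates above 0, with a median of -0.058.

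**Figure D5:**
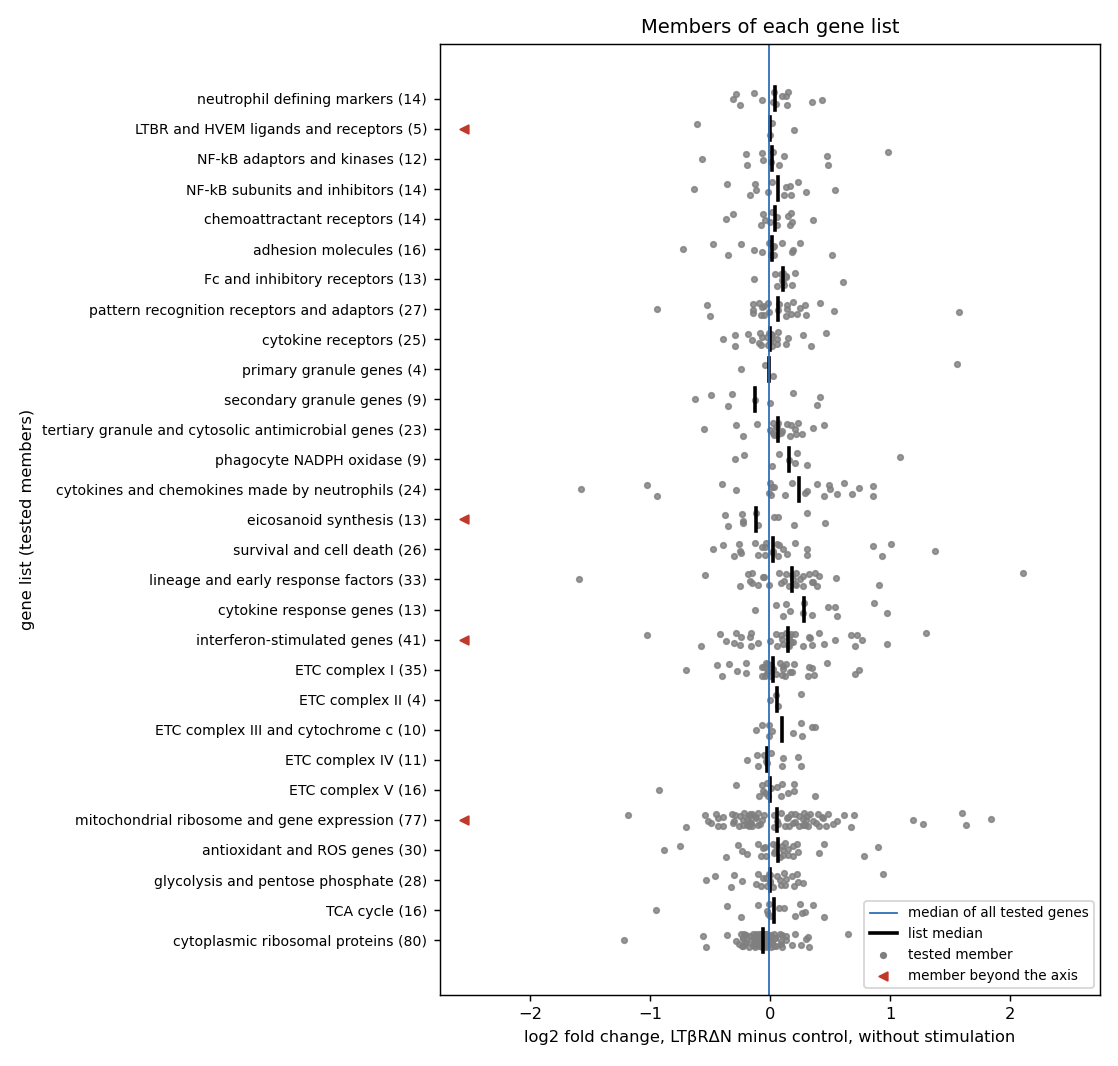
Log2 fold change (LTβRΔN minus control, without stimulation) of the tested members of 29 gene lists, with 1 point per gene, the list median as a black bar and the median of all 9213 tested genes (-0.0084) as a blue line. List medians lie between -0.12 and 0.29, and Ltbr, beyond the left end of the axis in its list, is the member past the threshold.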

How the data were processed

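Blood neutrophil RNA was sequenced single-end on a HiSeq2500, and the authors deposited 1 table of whole-number read counts per gene symbol, without normalization. The submitters' processing notes name Bowtie 1.0.0, TopHat 1.4.1, HTSeq 0.7.1 and mm10, while the annotation and the strand setting are not given in the sources used here. Reads of overlapping or antisense genes may thus be shared, and reads from near-identical copies may be lost, which bears on ribosomal protein genes and on genes listed at 0. Columns were assigned to groups by their names and the sample labels. Library pairs of a group differed beyond sampling noise (chi-square per degree of freedom of 11.6 to 49.2 over 9 pairs), so none was treated as a repeat.

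Genes were kept by filterByExpr (minimum count 10, minimum total 15). All 16 libraries entered 1 quasi-likelihood fit in edgeR 4.0.16 (R 4.3.3) with TMM factors and 1 coefficient per group, which shares the estimate of the spread, with Benjamini-Hochberg adjustment over 9213 genes. Overlap was judged on log2 CPM with a prior count of 2. TPM used exon lengths of GENCODE M21, matched for 22832 symbols (97.8%), of which 1903 through older symbols. The fit was tested on simulated data. Alternatives were other scalings and filters, DESeq2 1.42.0, limma 3.58.1 voom, the index as a covariate and each library left out. The members of the lists and the rule for naming genes were chosen with earlier results of these data known. The rule took the receptor and NF-κB lists, genes past the threshold, 10 non-overlapping genes per direction, the 30 most abundant transcripts, leading list members and those with an unadjusted p-value under 0.05, and neighbours of Ltbr and Ap1s1.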

Additional observations from a re-analysis of the deposited data

Results flagged for a closer look

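Among 61 groups of 4 LTβRΔN values examined, 4 held a single library far from the others, with a gap above Dixon's 95% critical value. Chance gives about 1 in 20 groups, or 3 here. Library 69 had the highest mean level of NF-κB adaptors and kinases, 5.046 on the log2 CPM scale. Library 68, the least deeply sequenced, stood apart in its mean log2 CPM of ETC complex I, at 4.579, and of complex III and cytochrome c, at 5.511. Its B cell markers summed to 1.6 CPM, all from Cd79a, which had 4 counts over the 4 LTβRΔN libraries.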

How the results depend on the processing

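Ltbr and Ap1s1 passed in every alternative in which they were tested. When 10 counts were required in each library, Ltbr itself was removed by the filter and 1 gene, Ap1s1, passed. The log2 fold change of Ltbr lay between -3.97 and -3.54 over all alternatives. In place of 2 genes, 4 passed with every gene of at least 1 count, 4 by DESeq2's Wald test, 5 with limma voom and sample quality weights, and 56 had an unadjusted p-value under 0.01. With each library left out in turn 2 to 6 genes passed. The 6 without control library 71 were Ltbr, Ap1s1, Mcl1, Aes, Ckap4 and Rnpepl1. Mcl1 passed in 5 alternatives, Aes in 3, Cebpb in 3 and Rnpepl1 in 1, with none reversed. With 1.5-fold in place of 2-fold, 1459 genes had an interval inside the limits. Without library 68, 1076 genes did not overlap between genotypes in place of 526, as fewer libraries need to be apart. List medians moved beyond the spread in 4 cases, for the cytokine response genes, for the receptor list with the 7 unstimulated libraries alone (-0.29) and for complex II without library 71 (0.21). No paired analysis was possible because the genotypes share no number, as far as the genotype difference within a treatment is concerned. With the column number as a random replicate block in limma, chosen after seeing the data, 3 genes passed, Ltbr, Ap1s1 and Mcl1. Unstimulated and stimulated libraries share 7 numbers. Deviations from the group means correlated at 0.0188 to 0.148 for equal numbers, over 0.1 for 1 pair, and 6 of 7 unstimulated libraries correlated best with their own number. With the number as a replicate block over these 14 libraries, added after seeing the data, 0 genes passed the interaction test and 311 had an unadjusted p-value under 0.05, against 0 and 384 without the block. Depth limits the comparison of genes from 1 to 10 CPM, whose median standard error was 1.098 on the log2 scale.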
